A study of Schizosaccharomyces pombe with 6 samples.

Results

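The spliceosome removes introns from nuclear transcripts, and in the fission yeast *Schizosaccharomyces pombe* many of its protein genes carry the names *prp*, *cwf*, *lsm* or *smd*. The genes described here are the protein-coding genes whose name is one of these prefixes followed by digits, 52 of the 6291 genes counted and of the 5058 counted genes annotated as protein coding. The rule uses the names and no measured value, although the group was picked with earlier results of these data known. They lie on chromosome I (12 genes), chromosome II (27 genes) and chromosome III (13 genes).

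Splicing begins when small nuclear ribonucleoprotein particles (snRNPs), each an RNA with its proteins, mark the ends of an intron and its branch site adenosine. The U1 and U2 particles bind first, the U4/U6.U5 tri-snRNP then joins, and the Prp19 complex and the Cwf proteins that copurify with Cdc5 enter as the catalytic centre forms. Sm proteins (*smd* genes and others) form a ring around the RNA of U1, U2, U4 and U5, and Lsm proteins form a similar ring on U6. Lsm1 and Lsm8 decide which ring is built: with Lsm1 it acts on mRNA decay in the cytoplasm, and with Lsm8 it holds U6 RNA in the nucleus.

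RNA sequencing was performed on one strain, *nup211-so*, whose gene for the nuclear pore basket protein Nup211 was placed behind P81nmt1, a promoter that thiamine represses, together with the *ura4*+ marker. All cultures also carried *leu1-32*, *ura4-D18* and *ade6-M210* in an *h*+ background and grew in Edinburgh minimal medium with adenine and leucine. In the thiamine group (3 cultures) the medium held 30 µM (10 µg/mL) thiamine for 24 h and, after a wash, for 24 h more, and 3 cultures without thiamine were the control. The labels call the cultures biological replicates, and no strain without the inserted promoter was sequenced in the libraries used here, so thiamine itself and repression of *nup211* cannot be told apart.

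The libraries held between 37195197 and 48815139 counts, of which ribosomal RNA genes took 46.3%, 28.7% and 24.6% in thiamine replicates 1, 2 and 3, and 41.2% to 48.98% in the libraries without thiamine. The thiamine-repressed gene *nmt1* had 0, 3 and 2 counts in the thiamine libraries, against 1631, 2061 and 1858 counts without thiamine, at least 836-fold lower with a floor of 3 counts per library. The *nup211* transcript averaged 12.3 ± 0.887 CPM (counts scaled to 1000000 per library) with thiamine and 13.8 ± 1.51 CPM without it (SD, n = 3 each). Its log2 fold change was −0.17 (SE 0.11, adjusted p = 0.199), so the RNA did not show the repression that the label implies. Its sign turned with library totals as the scale (0.40), and it was called lower with the upper quartile (−0.47, adjusted p = 0.0069) and with the trend of counts with gene length and GC content removed (−0.74, adjusted p = 4.8e-04). An antisense gene covers 87.0% of *nup211*, and reads of the pair cannot be told apart unless strand was used in counting. The paper reports, by Western blot, less Nup211 protein in *nup211-so* cells grown with thiamine. Because the RNA counts did not show a fall, the groups are called the libraries labelled thiamine and the libraries without thiamine.

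Most of these genes contain the signals that the proteins they encode act on. By the RefSeq annotation of assembly ASM294v3, 34 of the 52 genes (65.4%) had at least 1 intron in the coding region, against 46.6% of 5039 protein-coding genes with a matched annotation. Their 68 introns had a median length of 54 nt, against 56 nt over 4975 introns of all these genes. The introns of 4 genes are printed because they belong to the ring subunits and to the branch site factor on which the results turn. Capitals mark the first 6 bases, the last branch site word where 1 is present, and the final AG. The branch site word of this yeast was searched on the transcribed strand as CTAAC and its variant with a T at the end, and also as CTGAC with the same variant. In intron 2 of *prp10* 50 nt follow the last A of the marked word, against 8 to 16 nt in the other printed introns with one. A marked word is a match of letters, and its use as a branch site was not checked.

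lsm1 intron 1, chrII:1284973-1285020, minus strand: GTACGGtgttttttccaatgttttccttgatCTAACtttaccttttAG
lsm1 intron 2, chrII:1284856-1284903, minus strand: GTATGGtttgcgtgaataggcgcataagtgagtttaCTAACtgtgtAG
lsm1 intron 3, chrII:1284663-1284739, minus strand: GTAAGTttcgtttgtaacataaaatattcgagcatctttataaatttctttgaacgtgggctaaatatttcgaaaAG
lsm8 intron 1, chrIII:2277927-2277980, plus strand: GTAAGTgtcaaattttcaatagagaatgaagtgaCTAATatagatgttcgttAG
lsm8 intron 2, chrIII:2278150-2278212, plus strand: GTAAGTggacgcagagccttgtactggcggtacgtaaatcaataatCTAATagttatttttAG
smd1 intron 1, chrI:4520934-4520976, minus strand: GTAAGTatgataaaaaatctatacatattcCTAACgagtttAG
smd1 intron 2, chrI:4520828-4520883, minus strand: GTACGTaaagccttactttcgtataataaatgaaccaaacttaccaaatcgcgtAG
prp10 intron 1, chrI:4336727-4336777, minus strand: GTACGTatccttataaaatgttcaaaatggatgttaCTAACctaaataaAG
prp10 intron 2, chrI:4336556-4336621, minus strand: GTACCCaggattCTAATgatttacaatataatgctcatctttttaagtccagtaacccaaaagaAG

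The 9 introns begin with 5 different words, and both introns of *lsm8* begin with GTAAGT, the word at the start of 29.4% of the members' introns and 27.5% of all introns. The word CTAAC occurred in 47.1% of the members' introns and 45.1% of all introns, and any of the words searched in 86.8% and 76.5%. Every intron of the members began with GT and ended with AG, as did 99.5% of all introns. The letters were read from the reference, not from the libraries, and no read across an intron was counted here.

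Of the 52 genes, 49 passed the filter on low counts and were tested with edgeR's quasi-likelihood test, with p-values adjusted by the Benjamini-Hochberg method over all 5434 genes tested. At an adjusted p under 0.05, called here, 35 of the 49 changed (71.4%), close to the 69.8% of all genes tested, so the number that changed does not set them apart. The direction was less even. There were 23 that rose (46.9%), against 34.5% of all genes, and 12 that fell (24.5%), against 35.3%. Their median log2 fold change was 0.44, with a range of −1.55 to 1.91, and the median of all genes was −0.01.

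The split into rises and falls moved with the scaling of the libraries. With library totals as the scale it was 34 higher and 1 lower, and with the upper quartile it was 18 higher and 17 lower, settings that moved the median of all genes to 0.57 and −0.31. The median of these genes less the median of all genes was 0.45 in the main analysis. It was 0.32 with the length and GC trend removed, and 0.34 to 0.50 on leaving out 1 library. With library totals it was 0.43 and with the upper quartile 0.45, but a change of scale shifts all genes by nearly the same amount. The direction of a small change is thus relative to the other genes of the libraries, and an absolute amount per cell was not measured. In cultures like these, fewer cells of a kind and less RNA per cell cannot be told apart.

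Rises of at least 2-fold were found in 8 of the 49 genes, a share near the 16.4% of all genes. A fall of at least 2-fold was found in 1 of the 49, *lsm1*, against 13.6% of all genes. Every library labelled thiamine lay above every library without it in 23 of the 49 genes (46.9%), against 37.3% of all genes, and the reverse order held in 12 (24.5%), against 38.2%. These were the genes called in each direction. The ring genes and the rest differed in direction. Of the 11 *smd* and *lsm* genes 1 rose and 8 fell, with a median log2 fold change of −0.70, whereas of the other 41 genes (38 tested) 22 rose and 4 fell, with a median of 0.57. With library totals 3 ring genes rose and 1 fell (median −0.15), and 31 of the rest rose and 0 fell (median 1.151). On that scale 50.1% of all genes rose and 10.8% fell. With the trend of counts with gene length and GC content removed, 2 ring genes rose and 6 fell (median −0.32), and 20 of the rest rose and 4 fell (median 0.38). Relative to the median of all genes, the ring genes' median was −0.69 in the main analysis, −0.72 with library totals and −0.31 with the trend removed. No test of this difference was made, since the roles were assigned with earlier results known.

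**Figure D1:**
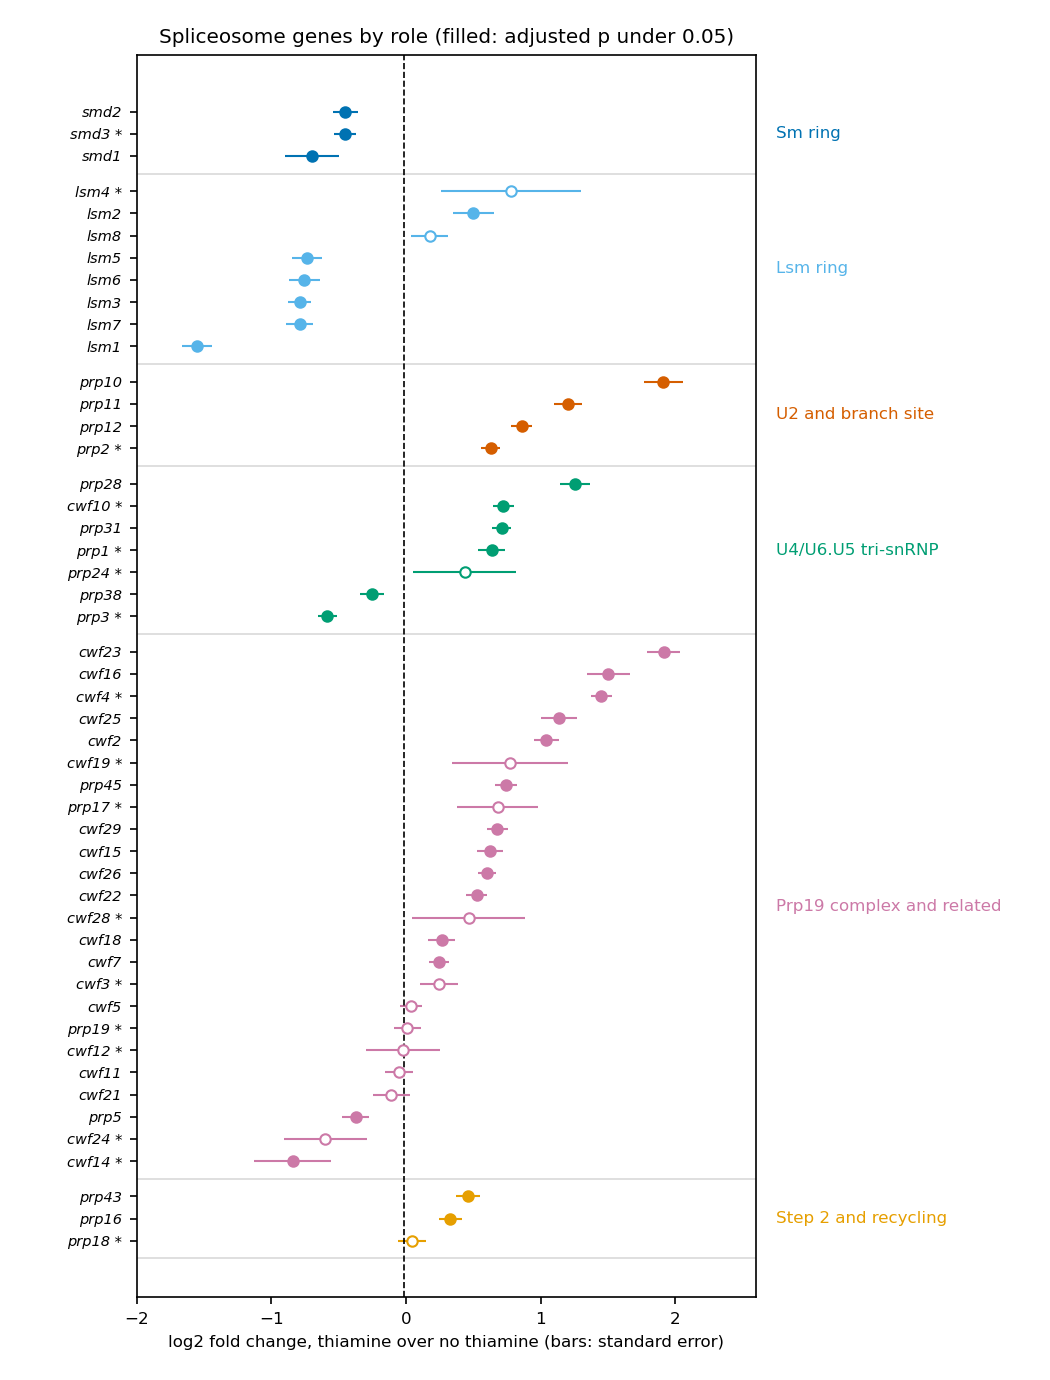
The log2 fold change of the libraries labelled thiamine over those without thiamine is drawn for the 49 genes tested, grouped by role, with bars for the standard error. Filled points have an adjusted p under 0.05, and an asterisk marks genes overlapped over 50% or more of their length by other counted genes. The dashed line is the median of all genes (−0.01). Among these members, the *smd* genes lie left of it and the U2 and branch site genes right of it.

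Summed over the 41 genes outside the rings, the level was 2036, 2041 and 2396 CPM in the libraries labelled thiamine, against 1272, 1223 and 1272 CPM without it. Summed over the 11 ring genes, it was 260.3, 254 and 214 CPM in the libraries labelled thiamine, against 405, 406 and 393 CPM without it. The groups overlapped in neither sum. Thiamine replicate 3, which had the smallest share of ribosomal RNA, also lay at the far end: it had the highest level of its group in 17 of the 23 genes that rose and the lowest in 8 of the 12 that fell. Without it 24 genes rose and 13 fell. How often replicate 3 lay at the far end was not counted over all genes. The part of that library's composition in the levels was not tested.

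All 3 *smd* genes, which encode core proteins of the Sm ring, fell. The other 4 Sm ring genes, named differently, are in the second list described below. There *smb1* rose (log2 fold change 0.52, adjusted p = 1.4e-04) and *sme1* fell (−0.35, adjusted p = 0.025). No change was called in *smg1* (−0.16), and *smf1* was not tested. The *smd1* transcript measured 36.5, 38.1 and 21.0 CPM in the libraries labelled thiamine, against 52.3, 54.0 and 48.6 CPM without it. Replicate 3 was the low one of the first group, and the groups did not overlap. This was a log2 fold change of −0.70 (SE 0.20, adjusted p = 0.012), which was −0.48 without that library.

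The *smd2* transcript measured 23.8, 24.8 and 21.7 CPM in the libraries labelled thiamine, against 34.6, 31.9 and 29.5 CPM without it. The fall was 1.37-fold (log2 fold change −0.45, SE 0.09, adjusted p = 0.0024). For *smd3* the values were 36.97, 33.6 and 31.8 CPM in the libraries labelled thiamine, against 47.0, 46.0 and 47.05 CPM without it. The log2 fold change was −0.45 (SE 0.08, adjusted p = 0.001), and 65.6% of this gene is overlapped by other counted genes. With libraries scaled by their totals *smd1* lost its call (−0.15, adjusted p = 0.545), and both *smd2* and *smd3* changed sign, to 0.12 each. Removing the trend of counts with gene length and GC content ended the call of *smd2* with and without the replicate number as a block (−0.06, adjusted p = 0.543 without it). It ended that of *smd1* without the block (−0.39, adjusted p = 0.0793) but not with it (−0.42, adjusted p = 0.031).

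The 8 *lsm* genes did not move together. There were 5 shared or ring-defining subunits that fell, *lsm2* rose, and *lsm4* and *lsm8* were not called. The largest fall of all 49 genes was that of *lsm1*, the subunit that defines the cytoplasmic ring. It had 24.4, 22.6 and 18.4 CPM in the libraries labelled thiamine, against 62.8, 65.2 and 63.8 CPM without it. The highest of the first group was below 25 CPM and the lowest of the second above 62 CPM. The mean fell to 21.8 ± 3.09 CPM, against 63.9 ± 1.22 CPM without thiamine (SD, n = 3 each), which was 2.93-fold lower (log2 fold change −1.55, SE 0.11, adjusted p = 4.7e-06). This was the one fall that was called under each of the 16 alternative settings run. The gene, SPBC3D6.08c, lies on chromosome II from 1284338 to 1285133 on the minus strand, and no other counted gene overlaps it.

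Its counterpart *lsm8*, which defines the nuclear ring, measured 7.93, 7.60 and 6.395 CPM in the libraries labelled thiamine, against 6.69, 5.70 and 7.002 CPM without it. The groups overlapped. The log2 fold change was 0.18 (SE 0.14, adjusted p = 0.277), with a 95% interval of −0.09 to 0.45. The gene, SPCC1840.10, was called higher with library totals (0.75) and after the length and GC trend was removed (0.53), and its sign turned with the upper quartile (−0.12). Its deposited transcript, 297 nt, is the shortest of the 52.

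These 4 shared subunits fell by similar amounts. The *lsm7* transcript measured 56.4, 56.03 and 46.3 CPM in the libraries labelled thiamine, against 84.5, 94.3 and 95.3 CPM without it, a log2 fold change of −0.79 (SE 0.10). The *lsm3* transcript measured 14.2, 14.5 and 13.2 CPM in the libraries labelled thiamine, against 25.1, 23.5 and 23.7 CPM without it, also −0.79 (SE 0.09). These are subunits that both rings use, and in neither gene did the groups overlap.

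The *lsm6* transcript measured 25.6, 22.2 and 23.6 CPM in the libraries labelled thiamine, against 46.1, 38.7 and 35.5 CPM without it, a log2 fold change of −0.75 (SE 0.11). The *lsm5* transcript measured 25.1, 22.7 and 19.1 CPM in the libraries labelled thiamine, against 39.0, 37.7 and 34.6 CPM without it, a log2 fold change of −0.73 (SE 0.11). The adjusted p of the 4 genes ranged between 5.4e-05 for *lsm3* and 4.0e-04 for *lsm5*, and the intervals of 1 SE around their estimates overlapped. All 4 kept their sign but lost their call when libraries were scaled by their totals.

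The other 2 shared subunits stood at low levels. For *lsm2* the values were 8.77, 10.9 and 11.8 CPM in the libraries labelled thiamine, against 6.62, 8.60 and 7.06 CPM without it. The lowest of the first group was just above the highest of the second. The rise of 0.50 (SE 0.15, adjusted p = 0.016) was lost without no-thiamine replicate 1 (0.42, adjusted p = 0.0708), without no-thiamine replicate 3 (0.46, adjusted p = 0.0578) and with the upper quartile (0.20, adjusted p = 0.262). For *lsm4* there were 27, 45 and 24 counts in the libraries labelled thiamine, against 14, 5 and 22 counts without thiamine. Other counted genes overlap 98.6% of it, and its log2 fold change was 0.78 (SE 0.52, adjusted p = 0.208), an estimate whose interval runs from −0.24 to 1.80.

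**Figure D2:**
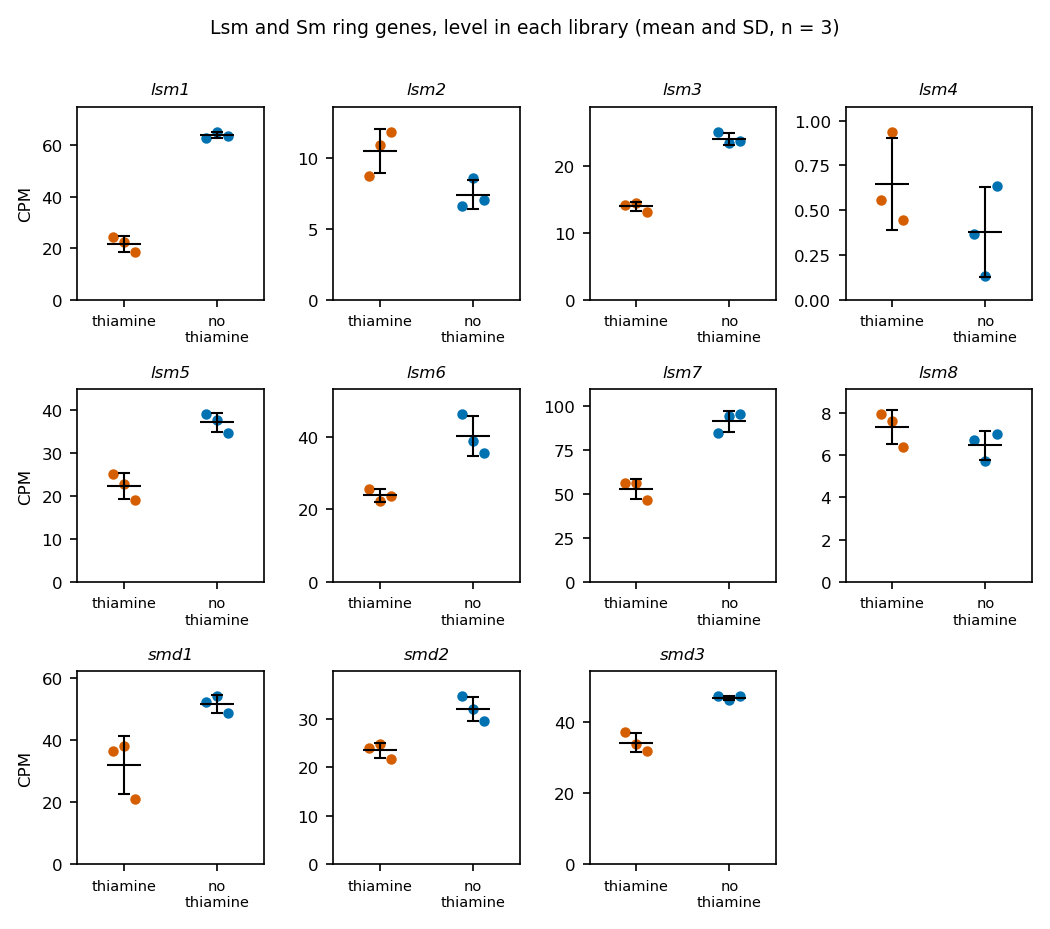
The level of each *lsm* and *smd* gene is plotted in CPM for the 3 libraries labelled thiamine (left, orange) and the 3 without thiamine (right, blue), with the mean and SD, each panel with its own axis from 0. The gap is widest for *lsm1* (18.4 to 24.4 CPM with thiamine, against 62.8 to 65.2 CPM without), and in *lsm4* and *lsm8* the groups overlap.

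Levels of different genes were set side by side per kilobase of the deposited transcript length, 623 nt for *lsm1* and 297 nt for *lsm8*. Whether these lengths hold the whole transcript was not checked. On this scale *lsm1* stood second without thiamine among the 27 members with under 5% of their length overlapped. Its level per kilobase was 35.0 CPM in the libraries labelled thiamine, against 103 CPM without thiamine. On the same scale *lsm8* was at 24.6 CPM in the libraries labelled thiamine, against 21.8 CPM without. The levels per kilobase of the genes that define the 2 rings thus differed less in the libraries labelled thiamine than in those without. The ring genes are also short, with a median transcript length of 627 nt, against 2082 nt for the members outside the rings, and each of the 11 has 1 to 4 introns in its coding region.

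The 4 members of U2 and branch site recognition all rose, with a median log2 fold change of 1.03. The second list, described below, has 12 tested genes of this role with other names. Of those 3 rose and 7 fell, with a median of −0.31. The gene *prp10* encodes the large SF3b subunit (SF3B1 family) that contacts the branch site region. It had 237, 249 and 341 CPM in the libraries labelled thiamine, against 72.6, 71.6 and 75.3 CPM without it. Replicate 3 was the high one, and the groups were far apart. The mean was 275 ± 57.0 CPM in the libraries labelled thiamine and 73.2 ± 1.94 CPM without thiamine (SD, n = 3 each), 3.76-fold higher (log2 fold change 1.91, SE 0.14, adjusted p = 6.3e-06). The gene, SPAC27F1.09c, lies on chromosome I from 4333135 to 4336797 on the minus strand, and its 2 coding introns are those printed above.

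The *prp11* transcript, for a DEAD-box helicase of branch site recognition, measured 95.1, 96.7 and 115 CPM in the libraries labelled thiamine, against 44.5, 40.5 and 48.1 CPM without it. It rose 2.30-fold (log2 fold change 1.20, SE 0.10, adjusted p = 1.4e-05). The *prp12* gene, for another SF3b subunit (SF3B3 family), had 52.3, 49.6 and 52.2 CPM in the libraries labelled thiamine, against 28.6, 26.7 and 29.7 CPM without it (log2 fold change 0.86, SE 0.08). The large subunit of U2AF, which binds the end of the intron, is encoded by *prp2*. It measured 46.1, 44.5 and 46.0 CPM in the libraries labelled thiamine, against 29.7, 29.0 and 29.6 CPM without it (log2 fold change 0.63, SE 0.07), with 54.9% of its length overlapped. In all 4 genes the groups did not overlap, and the 4 remained called higher under each of the 16 alternatives.

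Of the 8 genes of the tri-snRNP and its activation, 7 were tested, 4 rose and 2 fell. The largest rise was that of *prp28*, a DEAD-box helicase that releases U1 from the intron start. It had 92.8, 97.5 and 122 CPM in the libraries labelled thiamine, against 42.3, 42.5 and 45.9 CPM without it. The rise was 1.26 on the log2 scale (SE 0.11, adjusted p = 1.8e-05). The others that rose were *cwf10*, the U5 GTPase (0.72), *prp31*, a U4/U6 protein (0.71), and *prp1*, which bridges the particle (0.64).

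The U4/U6 protein gene *prp3* went the other way. It measured 28.1, 26.8 and 27.0 CPM in the libraries labelled thiamine, against 41.5, 40.6 and 40.5 CPM without it, 1.497-fold lower (log2 fold change −0.58, SE 0.07, adjusted p = 1.1e-04). Within each group the 3 values were close together. Other counted genes overlap 58.7% of it, and the call was lost with library totals (−0.01, adjusted p = 0.984). The fall of *prp38*, an activation factor, was smaller (−0.25, SE 0.09, adjusted p = 0.030), and it was lost or reversed in 10 of the 16 alternatives. In *prp24*, a U6 recycling factor with 70.5% of its length overlapped, no change was called (0.44, SE 0.38).

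The largest group was the Prp19 complex with the Cwf proteins related to it, 25 genes of which 24 were tested, 12 rose and 2 fell. The largest rise of all members was that of *cwf23*, which encodes a J domain protein. It had 35.3, 32.4 and 43.2 CPM in the libraries labelled thiamine, against 9.87, 10.2 and 9.29 CPM without it. The mean was 36.96 ± 5.63 CPM in the libraries labelled thiamine and 9.80 ± 0.484 CPM without thiamine (SD, n = 3 each), 3.77-fold higher (log2 fold change 1.91, SE 0.12, adjusted p = 2.9e-06). The gene, SPCC10H11.02, lies on chromosome III from 523960 to 525001 on the plus strand, has no intron in its coding region and is overlapped by no other counted gene. The estimates of *cwf23* and *prp10* lay within 1 SE of each other.

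The Yju2 family gene *cwf16*, a factor of the first catalytic step, had 113, 117 and 169.6 CPM in the libraries labelled thiamine, against 52.2, 44.4 and 44.2 CPM without it. It rose by 1.505 on the log2 scale (SE 0.16, adjusted p = 4.9e-05), and replicate 3 was again the highest of its group. The *cwf25* transcript, for another factor of the first step, measured 130.0, 128 and 181 CPM in the libraries labelled thiamine, against 67.5, 66.6 and 66.0 CPM without it. Its log2 fold change was 1.14 (SE 0.13, adjusted p = 8.9e-05).

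The tetratricopeptide repeat protein gene *cwf4* (Clf1, crooked neck family) had 55.98, 54.4 and 60.1 CPM in the libraries labelled thiamine, against 20.6, 20.8 and 21.0 CPM without it. Its log2 fold change was 1.45 (SE 0.08, adjusted p = 1.3e-06), the smallest SE of the 8 largest rises, and 52.7% of its length is overlapped. The RNA-binding protein gene *cwf2* had 214, 215 and 245 CPM in the libraries labelled thiamine, against 116, 107 and 105 CPM without it (log2 fold change 1.04, SE 0.09, adjusted p = 1.6e-05). The 8 largest rises were *cwf23*, *prp10*, *cwf16*, *cwf4*, *prp28*, *prp11*, *cwf25* and *cwf2*. Over the 16 alternatives their log2 fold changes lay between 0.75, with the upper quartile, and 2.52, with library totals, and each was called each time.

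**Figure D3:**
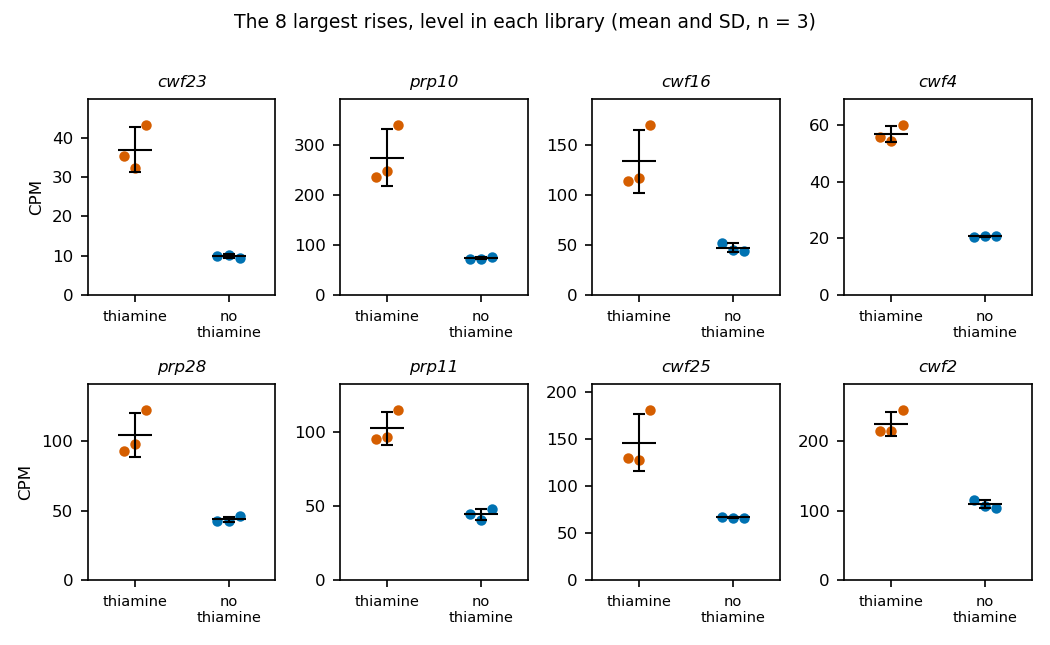
The level of the 8 genes with the largest rise is plotted in CPM for the 3 libraries labelled thiamine (left, orange) and the 3 without thiamine (right, blue), with the mean and SD, each panel with its own axis from 0. In each gene the groups are apart, as in *cwf23* (32.4 to 43.2 CPM with thiamine, against 9.29 to 10.2 CPM without), and thiamine replicate 3, the rightmost orange point, is the highest.

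The other rises of this group were smaller. They were *prp45*, the SKIP family gene (0.74), *cwf29* and *cwf26*, genes of the RES complex (0.68 and 0.60), *cwf15* (0.63), *cwf22*, a MIF4G domain protein gene (0.53), *cwf18* (0.27) and *cwf7*, a Prp19 complex subunit gene (0.25). The calls of *cwf18* and *cwf7* were lost, and their signs turned, with the upper quartile (−0.03 and −0.05). Leaving out any 1 of 5 libraries also ended the call of *cwf18*. The call of *cwf22* was lost after the length and GC trend was removed (0.19, adjusted p = 0.0512).

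The 2 falls were *cwf14*, of the Bud31 family, and *prp5*, which in this yeast encodes a WD repeat protein of the PLRG1 family. The *cwf14* gene had 46, 75 and 66 counts in the libraries labelled thiamine, against 71, 116 and 62 counts without thiamine. These raw counts overlap, whereas after scaling the groups were apart at 0.945, 1.56 and 1.22 CPM in the libraries labelled thiamine, against 1.85, 3.03 and 1.79 CPM without. The log2 fold change was −0.84 (SE 0.29, adjusted p = 0.027), with 97.7% of the gene overlapped, and the call was lost without thiamine replicate 1 (adjusted p = 0.0796) or no-thiamine replicate 2 (adjusted p = 0.123). The *prp5* transcript measured 68.0, 76.3 and 62.4 CPM in the libraries labelled thiamine, against 92.8, 81.6 and 93.4 CPM without it (log2 fold change −0.37, SE 0.10, adjusted p = 0.0081), and its sign turned with library totals (0.21).

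The ubiquitin ligase gene *prp19*, for which the complex is named, was among the 4 better measured genes with estimates nearest to 0. It had 18.7, 19.1 and 19.1 CPM in the libraries labelled thiamine, against 16.8, 18.9 and 20.9 CPM without it (log2 fold change 0.01, SE 0.10). The others were *cwf5*, an RNA-binding protein gene (0.04, SE 0.08), *cwf11*, of the Aquarius family (−0.05, SE 0.11), and *prp18*, a factor of the second step (0.04, SE 0.11). In each of the 4 the sign turned in at least 1 alternative. The remaining genes of the group without a call were *cwf3*, *cwf12*, *cwf19*, *cwf21*, *cwf24*, *cwf28* and *prp17*, between −0.60 for *cwf24* and 0.77 for *cwf19*, and of these only *cwf21* was overlapped by under 50%.

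The step 2 and recycling group has 4 genes, of which 3 were tested. The DEAH-box helicase genes *prp43*, which acts in releasing the spent spliceosome, and *prp16*, which acts before the second step, rose by 0.46 (SE 0.09, adjusted p = 0.0018) and 0.33 (SE 0.08, adjusted p = 0.007) on the log2 scale. Both calls were lost with the upper quartile (0.16 and 0.04) and after the length and GC trend was removed (0.19 and −0.05), where *prp16* changed sign. Among the members, no role group outside the rings had more falls than rises, which did not hold in the second list described below.

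Low counts kept 3 genes from the test. The helicase gene *prp22* had 4, 8 and 9 counts in the libraries labelled thiamine, against 3 in each library without thiamine. The kinase gene *prp4* had 8, 10 and 14 counts in the libraries labelled thiamine, against 5, 6 and 3 without, and *cwf20* had 2, 5 and 10 counts in the libraries labelled thiamine, against 7, 1 and 1 without. Other counted genes overlap 100%, 98.6% and 55.3% of *prp22*, *prp4* and *cwf20*. More broadly, all 11 members with under 120 counts in every library were overlapped by at least 55.3% of their length, and 1 of them was called, whereas 34 of the other 41 were. How the reads of overlapping genes were assigned is not given in the sources used here, so these low counts say little of the level of the transcripts.

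Of the 32 members with under 50% of their length overlapped, 19 rose (59.4%) and 9 fell (28.1%), against 34.5% and 35.3% of all genes. Their median log2 fold change was 0.40. Of the 20 with 50% or more (17 tested), 4 rose (23.5% of those tested) and 3 fell (17.6%). Outside the rings, 18 of the 23 little overlapped genes rose and 2 fell, *prp5* and *prp38*.

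The number of introns in the coding region, which the choice of genes did not use, ran with the direction. Of the 17 tested members without one, 13 rose and 1 fell, with a median of 0.63. With 1 intron 5 of 10 rose and 2 fell (median 0.25), with 2 introns 3 of 13 rose and 3 fell (median 0.18), and with 3 or more 2 of 9 rose and 6 fell (median −0.45). Over all protein-coding genes tested the medians were 0.16 for 2530 genes without an intron, −0.05 for 971 with 1, −0.17 for 611 with 2 and −0.37 for 625 with 3 or more. The members followed the same order. The share that rose was 43.0% of all genes without an intron and 18.9% of those with 3 or more, and the share that fell was 30.9% and 53.6%.

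Much of the lower end was held by the ring genes. Outside the rings the medians were 0.63 without an intron (17 genes), 0.25 with 1 (9 genes), 0.44 with 2 (9 genes) and 0.68 with 3 or more (3 genes). These medians showed no steady decline, and the last is that of *prp17*, not called and with 93.6% of its length overlapped. The share that rose still went from 76.5% without an intron to 55.6% with 1, 33.3% with 2 and 33.3% with 3 or more. The share that fell was 5.88%, 11.1%, 11.1% and 33.3% in the same order. Across the 49 members, the log2 fold change had a Pearson correlation of −0.41 with the number of introns, 0.40 with GC content, 0.33 with the log2 of transcript length and −0.08 with the share of the gene overlapped. Over the 38 outside the rings these were −0.20, 0.27, −0.06 and −0.39, the last with the share overlapped. The points share the same 6 libraries and are descriptions only. Removing the trend with length and GC content left 22 members higher and 10 lower, a median of −0.32 for the ring genes and a median of 0.38 for the rest.

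**Figure D4:**
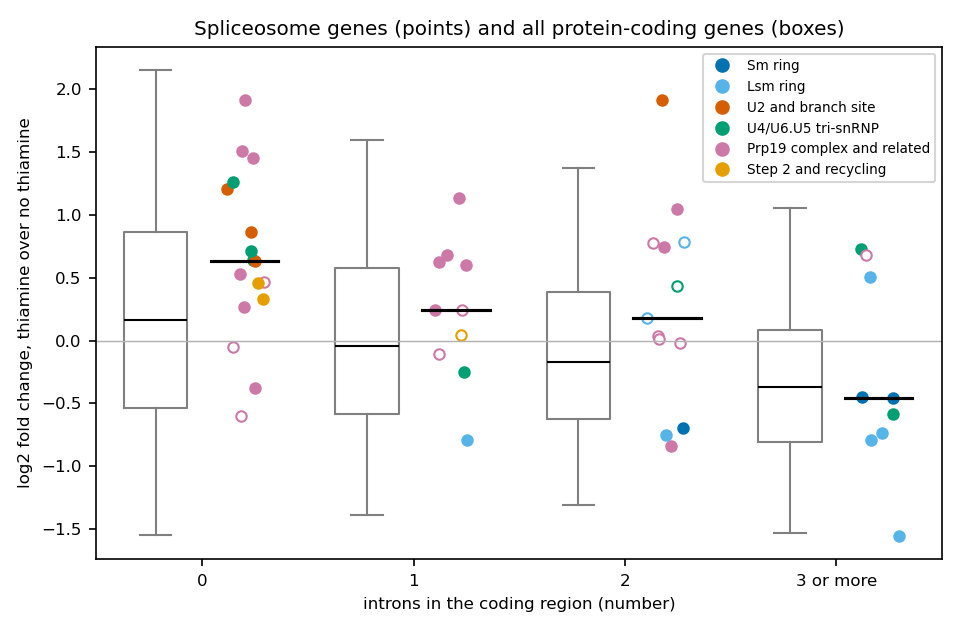
The log2 fold change of the libraries labelled thiamine over those without thiamine is plotted against the number of coding introns for the 49 members tested (points coloured by role, filled where called, short line the median) and for all protein-coding genes tested (boxes with the quartiles and median, whiskers from the 5th to the 95th percentile). The members' medians are 0.63, 0.25, 0.18 and −0.45, and those of all genes 0.16, −0.05, −0.17 and −0.37.

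The window of 250 bases before to 50 bases after the annotated start showed little in common. The HomolD box of ribosomal protein genes (CAGTCACA, either strand) was found in 0 of the 52 members and in 2.72% of all genes. The MluI box ACGCGT was found in 1 member, *prp22*, and in 3.28% of all genes. The letters TATAAA on either strand were found in 27 members (51.9%) and in 48.1% of all genes. A match is a description of the letters in this window.

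A second list held 54 other genes of the spliceosome and of snRNP assembly with other names, written from general knowledge of the pathway. Of 50 tested, 36 were called (72%, against 69.8% of all genes), a share near that of all genes. Of these 21 rose (42.0%, against 34.5%) and 15 fell (30.0%, against 35.3%), with a median log2 fold change of 0.12. By role, 3 rose and 7 fell of the 12 tested U2 and branch site genes, and 1 rose and 2 fell of 9 U1 genes. No SR protein or kinase gene and no snRNP assembly gene rose, and 1 of each fell. The tri-snRNP genes had 5 rises and 1 fall, and the Prp19 and step 2 groups 4 and 1 each. Other splicing factors had 3 rises and 0 falls, and the Sm ring 1 of each. Again the genes without introns held most rises, 15 of 20, whereas of 30 with introns 6 rose and 12 fell. With library totals 30 rose and 1 fell, where 50.1% of all genes rose and 10.8% fell.

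Among the 4 largest rises of this list, *sde2* encodes a ubiquitin-fold protein of the spliceosome. It had 88.5, 84.6 and 153 CPM in the libraries labelled thiamine, against 22.1, 22.2 and 21.9 CPM without it (log2 fold change 2.30, SE 0.22, adjusted p = 2.4e-05). The spliceosome-associated factor gene *saf3* had 66.2, 60.3 and 55.5 CPM in the libraries labelled thiamine, against 15.2, 16.1 and 16.4 CPM without it (1.93, SE 0.09). The Prp8 gene *spp42*, the scaffold of the catalytic centre, had 152, 134 and 143 CPM in the libraries labelled thiamine, against 43.5, 44.6 and 41.5 CPM without it (1.73, SE 0.08). The estimate of *snu66*, a tri-snRNP gene, was larger (2.59, SE 0.49), but it is overlapped over its whole length and stood under 1 CPM in every library.

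The largest falls of that list were in small snRNP proteins and in assembly. The *smn1* gene, for the SMN protein that assembles Sm rings, had 7.29, 7.80 and 5.005 CPM in the libraries labelled thiamine, against 13.9, 14.9 and 15.9 CPM without it (log2 fold change −1.15, SE 0.17, adjusted p = 2.7e-04). The U4 protein gene *snu13* averaged 173 ± 18.1 CPM in the libraries labelled thiamine and 333 ± 25.7 CPM without thiamine (SD, n = 3 each; −0.94, SE 0.11). The U2 protein gene *lea1* fell by 0.83 (SE 0.14) and the SF3b subunit gene *sap14* by 0.69 (SE 0.14) on the log2 scale. All but *smn1* of these 4 lost their call with library totals.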

How the data were processed

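Poly(A) RNA was sequenced with a stranded kit (TruSeq Stranded mRNA) from 3 cultures labelled thiamine and 3 without thiamine. The deposited file holds raw counts per gene, not normalized by the authors; the labels name STAR and DESeq2 without versions, and the counting tool, its strand setting and the genome build are not given in the sources used here. The deposited positions overlapped those of RefSeq assembly ASM294v3 for 99.984% of 6233 genes, so its introns and promoters were used. The authors' comparison table (fold changes, p-values) gave only gene names, types, positions and transcript lengths.

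Counts were tested with edgeR 4.0.16 (R 4.3.3; TMM, filterByExpr, robust quasi-likelihood F test, two-sided, Benjamini-Hochberg over all genes), with treatment as the only term; the study names DESeq2 and its model is not given in the sources used here. CPM are scaled with TMM. SE is the log2 fold change over the square root of F. The alternatives were library totals, upper quartile, DESeq2 1.42.0 and its size factors, no filter or 10 counts in 3 libraries, each library left out, the replicate number as a block, a loess trend on length and GC content removed with and without that block, rRNA genes left out, and overlapped members left out. The script was tested on simulated data. No pair of libraries agreed within sampling noise. p-values reflect the spread between the cultures, and 3 per group limit their precision.

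Members and lists were chosen with earlier results of these data known. Values are given for the *lsm* and *smd* genes, the 8 largest rises and falls called without overlap between groups, the 4 estimates nearest to 0 among members whose log2 CPM averaged 3 or more, untested members, and the 4 largest rises and falls of the second list; other members were named after their values were seen.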

Additional observations from a re-analysis of the deposited data

How the results depend on the processing

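The scale set the split into rises and falls. With library totals the members' median was 1.00 with 1 fall, and 1 gene of the second list fell, where 10.8% of all genes fell. With the upper quartile the median was 0.15. The median was 0.50 with DESeq2, 0.30 with the length and GC trend removed, 0.28 with that trend removed and a replicate block, and 0.40 without the overlapped members. Leaving out 1 library gave 21 to 24 rises, 10 to 13 falls and a median of 0.32 to 0.48; falls of the second list ranged over 9 to 15, with 9 without no-thiamine replicate 2. The ring genes' median was −0.48 without thiamine replicate 3. Of the 23 rises 17 were called in each of 16 settings, and of the 12 falls 1.

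The same-numbered cultures did not deviate together (correlations of −0.005, 0.086 and −0.028), so the numbers do not pair them; a replicate block gave 22 rises, 12 falls and a median of 0.40.

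Signs turned with library totals for *nup211* (0.40), *smd2* (0.12), *smd3* (0.12) and *cwf11* (0.51), and with the upper quartile for *lsm8* (−0.12), *prp19* (−0.28), *cwf5* (−0.26) and *prp18* (−0.25). They also turned for *prp19* without rRNA genes (−0.010), for *prp18* with the trend removed (−0.11 without and −0.11 with the block), and on leaving out 1 library, over which *prp19* ranged from −0.070 to 0.087, *cwf5* from −0.012 to 0.075, *prp18* from −0.021 to 0.079 and *cwf11* from −0.12 to 0.030. With the trend removed *nup211* was called lower (−0.74). The cause was not tested. The 11 members under 120 counts in every library, all overlapped by other genes, include the 8 tested members with the largest SE.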

Other observations

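The annotation names 7 antisense genes for members, of which 4 passed the filter on low counts. The antisense gene of *cwf4* had 17, 19 and 25 counts in the libraries labelled thiamine, against 4, 2 and 3 counts without thiamine. Its log2 fold change was 2.28 (SE 0.43, adjusted p = 0.0015), and *cwf4* itself, on the opposite strand, rose by 1.45. Reads of the pair cannot be told apart unless strand was used in counting. The antisense genes of *cwf28*, *cwf19* and *prp22* were not called, and that of *prp22* had 90, 91 and 214 counts in the libraries labelled thiamine, against 85, 108 and 73 counts without. The *prp22* gene itself had 3 to 9 counts in any library.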
